A study of Mus musculus with 8 samples.

Results

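Vascular endothelial cells line the vessels of skeletal muscle and are recognised by a small set of genes, and the 10 genes described here are 9 such identity genes (Cdh5, Pecam1, Esam, Kdr, Flt1, Tek, Tie1, Sox17 and Sox18) together with Bcl6b, a transcriptional repressor of the BCL6 family. The members were selected on measured values of the same mice, since Bcl6b was chosen by its lower level in muscle without IRF4, and the 9 others were chosen as its endothelial companions with results of these data in view. All 10 were found among the 24054 genes of the table, and all 10 passed the filter on low values with 11865 genes in all. The question was whether Bcl6b followed the other endothelial genes across the 8 mice.

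RNA was sequenced from the soleus (SOL), a slow postural muscle, of 4 flox mice and 4 MI4KO mice. Both groups were male C57BL/6 mice carrying loxP-flanked Irf4 alleles, and the labels record a high-fat diet for all of them, although the diet of these animals is not stated in the study's text, and no source used here gives their age. MI4KO mice are Irf4 flox/flox animals that also carry Myl1-Cre, whose recombinase acts in skeletal muscle fibers, and flox mice lack Cre, so the design deletes Irf4 in fibers and not in the vessels between them. Mice are numbered 1 to 4 within each group in ascending order of their label numbers. These numbers fall in a lower run, flox mouse 1 with MI4KO mice 1 and 2, and a higher run, the other mice. The labels do not say what the runs stand for. All values are the deposited CPM, reads on a gene scaled to library depth with the trimmed mean of M-values (TMM). The 8 libraries held between 13417512 and 16384565 reads on genes, and the detection floor of 3 reads corresponded to values of 0.181 to 0.225. Irf4, the deleted gene, was at 0.686, 1.46, 1.58 and 1.68 in flox mice 1 to 4 and at 0.725, 0.840, 0.266 and 1.03 in MI4KO mice 1 to 4. Flox mouse 1 was thus below MI4KO mice 1, 2 and 4, on 4 to 23 reads per mouse.

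A pair of libraries stood apart. The summed value of 10 liver genes was 139 in flox mouse 1 and 0.133 to 0.763 in the other 7 mice. The summed value of 10 glucocorticoid-responsive genes was 1243 in MI4KO mouse 3, against 407 to 577 elsewhere. The log2 fold changes of the members and their correlations with Bcl6b are therefore also given without these mice. A list of 8 fiber genes, slow-fiber genes together with the general muscle genes Acta1 and Ckm, was also summed. The sum ranged from 70724 to 85548 across flox mice and from 67901 to 80944 across MI4KO mice. In bulk muscle, fewer endothelial cells and less RNA per endothelial cell cannot be told apart.

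Endothelial cells hold to each other through VE-cadherin (Cdh5) and PECAM-1 (Pecam1), read vascular endothelial growth factor through VEGFR2 (Kdr) and VEGFR1 (Flt1), and read angiopoietins through TIE2 (Tek) with its partner TIE1 (Tie1). Transcription factors of the ETS, SOX and GATA families act together at the enhancers and promoters of these genes. Bcl6b, also called BAZF, is a zinc finger repressor that is found in endothelial cells, where it has been linked to VEGF and Notch signaling, and also in lymphocytes and germline stem cells.

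Promoter windows were at hand for 4 of the 10 members, Kdr, Flt1, Tek and Tie1. Those of Kdr, Flt1 and Tek held 247, 250 and 250 bases before the annotated start, and these bases are shown. The window of Tie1 held only 38 such bases and is not shown, since most of it lies inside the annotated gene. The 3 stretches are the bases just before the annotated start of each gene, in GRCm38.p6 of RefSeq, printed 5′ to 3′ on the gene's strand. Capitals mark the ETS core GGAA, or TTCC where it lies on the other strand. Tek lies on the plus strand and its bases are chr4:94739039-94739288. Kdr and Flt1 lie on the minus strand, and their bases are chr5:75978459-75978705 and chr5:147726012-147726261.
Tek: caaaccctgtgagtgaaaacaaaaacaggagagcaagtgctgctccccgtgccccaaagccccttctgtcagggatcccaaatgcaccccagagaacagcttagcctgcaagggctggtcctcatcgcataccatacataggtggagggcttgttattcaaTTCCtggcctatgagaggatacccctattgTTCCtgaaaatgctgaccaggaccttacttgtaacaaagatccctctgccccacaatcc
Kdr: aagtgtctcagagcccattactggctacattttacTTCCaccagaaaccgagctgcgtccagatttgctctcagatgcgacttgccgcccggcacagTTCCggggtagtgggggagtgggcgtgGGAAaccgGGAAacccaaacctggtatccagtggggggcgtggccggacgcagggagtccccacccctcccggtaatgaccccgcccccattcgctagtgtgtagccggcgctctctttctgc
Flt1: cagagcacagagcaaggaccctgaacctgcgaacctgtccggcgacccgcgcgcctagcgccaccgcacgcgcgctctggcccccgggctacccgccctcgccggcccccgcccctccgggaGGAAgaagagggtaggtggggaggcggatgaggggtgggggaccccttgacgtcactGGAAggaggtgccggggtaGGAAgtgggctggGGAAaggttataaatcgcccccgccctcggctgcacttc
The stretch of Tek holds 2 ETS cores, and those of Kdr and Flt1 hold 4 each. In windows of 300 bases, GGAA on either strand occurred in 95.98% of 32851 promoters, so its presence sets none of these genes apart. The longer form CCGGAA, which contains GGAA, was found in the window of Kdr alone among the 4 members, and in 14.9% of all promoters. The window of Tek held the letters ACAAT of a SOX site 2 times and AGATAA of a GATA site 1 time, found in 31.0% and 11.2% of promoters, and the windows of Kdr, Flt1 and Tie1 held neither. None of the 4 windows held GAAANNGAAA, the interferon-stimulated response element (3.44% of promoters), or GGAANNGAAA, the composite ETS and IRF element (2.72%), on either strand. These matches describe letters in a window and say nothing of binding.

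Cdh5 was the most abundant member. Per kilobase of exon, the flox mean was 31.0 ± 2.84 (SD, n = 4) for Cdh5 and 16.5 ± 0.988 (SD, n = 4) for Pecam1, and these neighbours differed by more than the sum of their SDs. Sox18 followed at 14.5 ± 1.27, Esam at 11.6 ± 0.930 and Tie1 at 10.2 ± 1.67 (SD, n = 4 each). By the same measure Sox18 was not separate from Pecam1, nor Tie1 from Esam. Kdr (7.01 ± 0.494), Tek (5.37 ± 0.410) and Flt1 (4.89 ± 0.524) came next, and Tek and Flt1 were not separate. Bcl6b (2.91 ± 0.909) and Sox17 (2.54 ± 0.356) were the lowest per kilobase and could not be ordered. Exons of Sox17 overlap those of Gm37587 on the opposite strand.

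Cdh5 encodes VE-cadherin, the adhesive cadherin of endothelial junctions, and its plus-strand gene spans bases 104101625 to 104144511 of chromosome 8 (GRCm38). It was at 113, 134, 139 and 136 in flox mice 1 to 4. In MI4KO mice 1 to 4 it was at 82.0, 114, 114 and 121. Flox mouse 1 was below the other flox mice and MI4KO mouse 1 below the other MI4KO mice, and the groups overlapped only through flox mouse 1. The means were 130.3 ± 11.9 and 107 ± 17.3 (SD, n = 4 each), a log2 fold change of -0.29 (standard error 0.12) on the log2(value + 1) scale.

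Pecam1, the adhesion molecule CD31, was at 95.1, 100.4, 107 and 108 in flox mice and at 73.1, 92.4, 123 and 91.7 in MI4KO mice. Esam, a junctional immunoglobulin-like adhesion molecule, was at 29.6, 33.2, 34.8 and 35.6 in flox mice and at 26.2, 31.7, 40.8 and 29.6 in MI4KO mice. For both genes MI4KO mouse 1 was the lowest of all 8 mice and MI4KO mouse 3 the highest, so the MI4KO values enclosed those of flox. Their log2 fold changes were -0.13 for Pecam1 and -0.07 for Esam (standard error 0.12 each). MI4KO mice 1 and 3 decided both values, which were -0.26 and -0.19 without MI4KO mouse 3 and -0.017 and 0.02 without MI4KO mouse 1. In the whole list of 12 junction and adhesion genes, 1 (Icam2) had MI4KO values below flox without overlap, as 1.7% of all genes had. None was higher, and 3 were lower in MI4KO at an unadjusted p under 0.05 in limma, beside 2.95% of all genes tested. Beside Cdh5 these were Jam2, a junctional adhesion molecule, at 48.1 ± 4.47 and 40.7 ± 3.63, and Icam2, an endothelial ligand of leukocyte integrins, at 8.52 ± 1.02 and 6.75 ± 0.688 (SD, n = 4 each). The median log2 fold change of the list was -0.18, where all genes tested had -0.01. The count of 3 went to 0 with scaling by library size and to 0 without flox mouse 2, beside 1.11% and 2.71% of all genes. It went to 1 without MI4KO mouse 1 or flox mouse 3 (2.19% and 1.8% of all genes) and to 2 without flox mouse 4 (1.89%). Without MI4KO mouse 4 it was 5, beside 4.43% of all genes. With MI4KO mouse 3 and flox mouse 1 both left out it was 6, beside 4.71%. With the mean of the 9 endothelial identity genes as covariate it was 0, beside 2.43%.

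The VEGF receptors parted from each other in a single mouse. Kdr, the main signaling receptor for VEGF, was at 57.0, 65.6, 67.2 and 63.4 in flox mice and at 38.7, 57.7, 39.8 and 63.4 in MI4KO mice. Flt1, which binds VEGF tightly and signals weakly, was at 56.7, 64.9, 73.5 and 68.8 in flox mice and at 48.8, 62.8, 89.5 and 62.2 in MI4KO mice. In MI4KO mouse 3 Kdr was the second lowest and Flt1 the highest of all 8 mice, and the groups overlapped for both. The value of Kdr divided by that of Flt1 was 0.444 in MI4KO mouse 3, against 0.793 to 1.02 in the other 7 mice. The log2 fold change of Kdr was -0.37 (standard error 0.14), and that of Flt1 was -0.03 (standard error 0.15), and the sign of Flt1 turned with scaling by library size, with edgeR and DESeq2, without flox mouse 3 and without MI4KO mouse 1, where it was 0.10. Without MI4KO mouse 3 the values were -0.27 for Kdr and -0.19 for Flt1. Of the 10 VEGF ligands and receptors, 2 had an unadjusted p under 0.05, both lower (20%, beside 2.95% of all genes), with a median of -0.09 over the list. The count was 1 with scaling by library size and with edgeR, beside 1.11% and 1.97% of all genes. It was also 1 without MI4KO mouse 1, MI4KO mouse 3, flox mouse 2 or flox mouse 3 (2.19%, 4.57%, 2.71% and 1.8%). Without MI4KO mouse 4 it was 3 (4.43%). With the mean of the 9 endothelial identity genes as covariate it was 1 (2.43%). Beside Kdr, the gene lower with all mice was Nrp2, a co-receptor for VEGF-C. Nrp2 was at 19.7 ± 1.80 in flox mice and 15.1 ± 1.23 in MI4KO mice (SD, n = 4 each). Its MI4KO values all lay below flox, as those of 1.7% of all genes did.

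Tek, the angiopoietin receptor TIE2, had the narrowest range of the receptors. It was at 23.1, 25.9, 24.5 and 27.6 in flox mice and at 18.9, 23.3, 20.3 and 25.9 in MI4KO mice. As with Kdr, MI4KO mice 1 and 3 were the lowest and MI4KO mouse 4 was level with flox. Tie1, the orphan partner of TIE2, was at 40.1, 47.9, 52.3 and 59.7 in flox mice and at 32.5, 43.1, 47.9 and 42.5 in MI4KO mice. Both overlapped between the groups, with log2 fold changes of -0.19 (standard error 0.10) for Tek and -0.26 (standard error 0.13) for Tie1. No angiopoietin or TIE gene of the 5 tested reached an unadjusted p of 0.05 with all mice. Without MI4KO mouse 3 or MI4KO mouse 4, 2 of the 5 were lower at that limit, beside 4.57% and 4.43% of all genes. Without flox mouse 1, 1 of the 5 was, beside 3.09% of all genes. The log2 fold changes of this list lay between -0.33 for Angpt2, an angiopoietin that can block TIE2, and -0.03 for Angpt1, its activating ligand.

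Sox17, an F-group SOX factor of arterial endothelium, was at 10.2, 11.2, 13.6 and 13.6 in flox mice and at 7.76, 11.4, 18.3 and 11.7 in MI4KO mice. Sox18, the F-group factor known for its part in lymphatic and blood vessel development, was at 21.6, 24.3, 26.0 and 22.0 in flox mice and at 18.9, 20.1, 26.7 and 23.3 in MI4KO mice. Both had their lowest value in MI4KO mouse 1 and their highest in MI4KO mouse 3. The log2 fold changes were -0.03 (standard error 0.19) for Sox17 and -0.08 (standard error 0.11) for Sox18, and that of Sox17 turned positive with scaling by library size, with edgeR and DESeq2, and without MI4KO mouse 1 (0.15), flox mouse 3 (0.02) or flox mouse 4 (0.02). The values without MI4KO mouse 3 were -0.23 for Sox17 and -0.17 for Sox18, and without MI4KO mouse 1 that of Sox18 was -0.0092.

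Bcl6b, on the minus strand of chromosome 11 (GRCm38, bases 70224128 to 70229798), rested on the fewest reads of the members, 50 to 220 per mouse. It was at 6.67, 14.8, 10.1 and 11.7 in flox mice 1 to 4. In MI4KO mice 1 to 4 it was at 3.63, 3.75, 5.78 and 13.3. MI4KO mice 1, 2 and 3 lay below every flox mouse, and MI4KO mouse 4 lay above 3 of the 4 flox mice. The means were 10.8 ± 3.38 in flox and 6.61 ± 4.56 in MI4KO mice (SD, n = 4 each), with a log2 fold change of -0.75 (standard error 0.32), which is given as a description because Bcl6b was chosen by this difference. Counting error did not cover the spread within groups, since the exact 95% Poisson interval was 2.85 to 4.85 in MI4KO mouse 2 and 11.6 to 15.2 in MI4KO mouse 4. Bcl6, the closest relative of Bcl6b, was at 59.1 ± 13.9 in flox and 57.9 ± 7.39 in MI4KO mice (SD, n = 4 each), a log2 fold change of -0.01 (standard error 0.14), whose sign depended on the scaling.

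**Figure D1:**
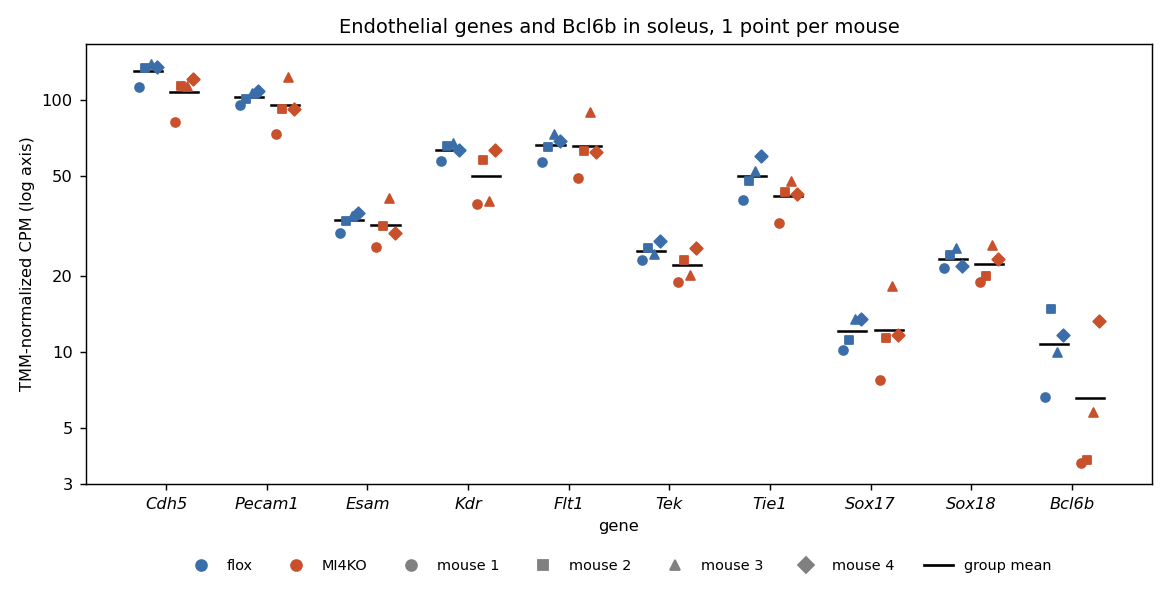
TMM-normalized CPM (log axis) of the 10 genes in each mouse, blue for flox and orange for MI4KO, with 1 symbol shape per mouse number and a black line at the group mean. The circle of MI4KO mouse 1 is the lowest point of every gene, and in Bcl6b 3 of the 4 MI4KO mice lie below all flox mice while MI4KO mouse 4, at 13.3, lies among them.

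Between the groups, the share of genes past the limits was small. In the fit of limma over all genes, 26 of 11865 genes were 1.5-fold or more apart with an unadjusted p under 0.05, which is 0.219%, and 19 were lower in MI4KO (0.16%). Bcl6b was 1 of these and no other member was, and nothing is read from this, since Bcl6b was chosen on this contrast. Among the 9 members other than Bcl6b, 2 (Cdh5 and Kdr) had an unadjusted p under 0.05 with a lower level in MI4KO, as did 2.95% of all genes tested. No member had MI4KO values all below the flox values, as 1.7% of all genes had. Every member had a Benjamini-Hochberg adjusted p of 1.0, and no gene of the table had one under 0.05. Of the 399 genes with an unadjusted p under 0.05, 49 were higher and 350 lower, and this split became 263 higher and 132 lower with scaling by library size alone. With that scaling the log2 fold changes were -0.24 for Cdh5 and -0.32 for Kdr, and the unadjusted p of both rose above 0.05.

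The log2 fold changes of the members moved with the libraries that stood apart. They were, without MI4KO mouse 3, -0.32 for Cdh5, -0.26 for Pecam1, -0.33 for Tie1, -0.16 for Tek and -0.75 for Bcl6b. Of the 9 members other than Bcl6b, Cdh5, Pecam1 and Tie1 were then lower at an unadjusted p under 0.05, as 4.57% of all genes were, and Kdr no longer was. Without flox mouse 1 they were -0.35 for Cdh5, -0.17 for Pecam1, -0.12 for Esam, -0.42 for Kdr and -0.10 for Flt1. In the same fit they were -0.23 for Tek, -0.36 for Tie1, -0.10 for Sox17, -0.12 for Sox18 and -0.94 for Bcl6b. Without MI4KO mouse 1, the lowest mouse for every member, those of Cdh5, Tek and Tie1 were -0.16, -0.13 and -0.15, and no member had an unadjusted p under 0.05. In that fit 2.19% of all genes were lower at this limit. Each adjusted p in limma was 0.969 or more in these 3 fits.

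**Figure D2:**
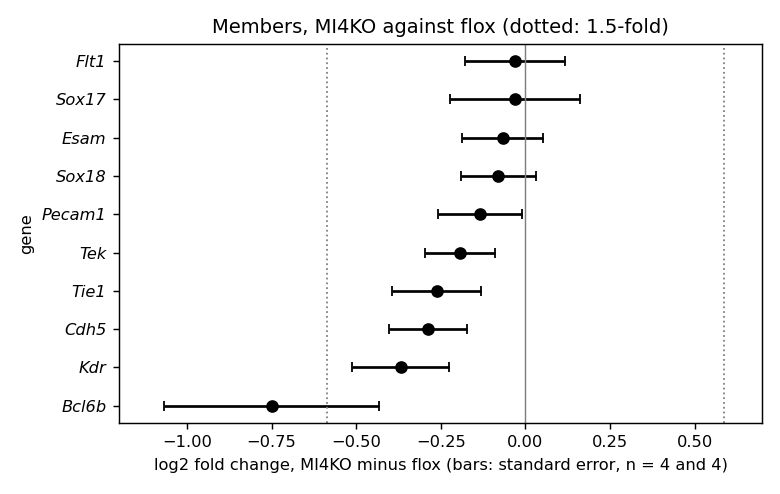
Log2 fold change of each member, MI4KO minus flox, with its standard error from limma (4 mice against 4), and dotted lines at a fold change of 1.5 in either direction. Bcl6b, at -0.75, is the only member past the dotted line, and all 10 points lie below zero.

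The 9 endothelial genes shared their low mouse. MI4KO mouse 1 was the lowest of all 8 mice for 9 of the 9, and it was the lowest for Bcl6b too. MI4KO mouse 3 was the highest for 5 of the 9 (Pecam1, Esam, Flt1, Sox17 and Sox18), and flox mice 3 and 4 were the highest for 2 each. The mean of the 9 genes on the log2(value + 1) scale was 5.33, 5.51, 5.60 and 5.59 in flox mice and 5.01, 5.38, 5.57 and 5.43 in MI4KO mice. The groups overlapped, and the MI4KO mean was lower by a difference of -0.16, beside within-group standard deviations of 0.124 in flox and 0.236 in MI4KO mice. The summed value of 10 mural cell markers, which mark pericytes and smooth muscle, was also lowest in MI4KO mouse 1, at 381, and lay between 480 and 581 in the others. The part of vessel wall content in the low values of that mouse was not tested. In the lower run of label numbers, flox mouse 1 and MI4KO mice 1 and 2, the 9-gene means were 5.33, 5.01 and 5.38. They were the lowest of the 8 mice. In the same mice Bcl6b was at 6.67, 3.63 and 3.75, against 5.78 to 14.8 in the others. The group comparison and the correlations with Bcl6b given below take no account of the runs, and the part of the runs was not tested.

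**Figure D3:**
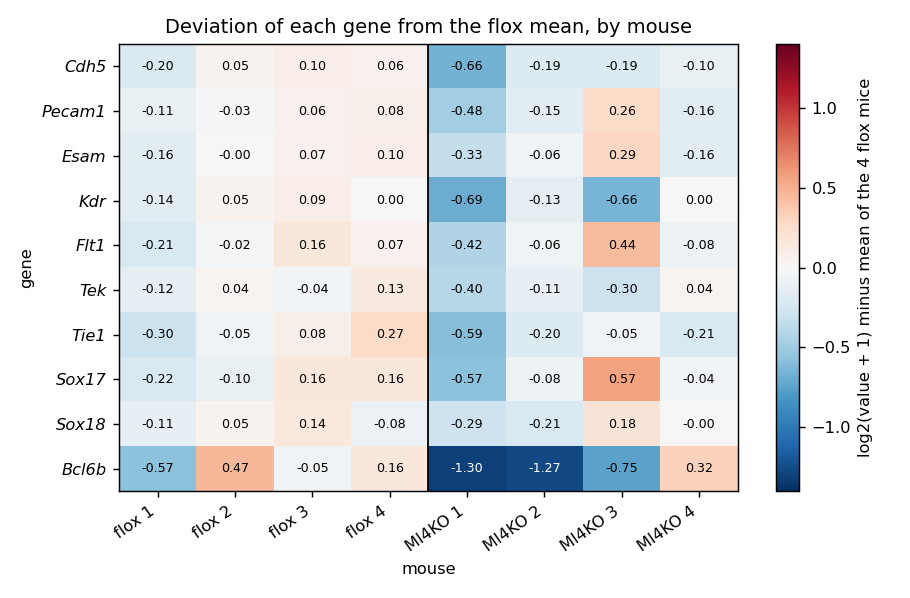
Log2(value + 1) of each gene (rows) in each mouse (columns) minus the mean of the 4 flox mice, blue for lower and red for higher. The column of MI4KO mouse 1 is blue for all 10 genes, that of MI4KO mouse 3 is red for 5 genes and blue for Cdh5, Kdr, Tek, Tie1 and Bcl6b, and Bcl6b holds the 3 lowest values, -1.30, -1.27 and -0.75.

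Bcl6b lay below the mean of the 9 genes by different amounts from mouse to mouse. Bcl6b minus that mean was -2.39, -1.53, -2.13 and -1.92 on the log2 scale in flox mice 1 to 4. It was -2.80, -3.13, -2.81 and -1.59 in MI4KO mice 1 to 4. MI4KO mice 1, 2 and 3 were below all flox mice, and MI4KO mouse 4 was inside the flox range. The difference of the group means was -0.59, beside standard deviations of 0.366 in flox and 0.679 in MI4KO mice, and is a description as it contains the contrast on which Bcl6b was chosen. With the mean of the 9 genes as a covariate, the log2 fold change of Bcl6b was -0.47 (standard error 0.31). MI4KO mouse 2 parts most from a shared course, since its 9-gene mean of 5.38 was above that of flox mouse 1 while its Bcl6b was at 3.75 against 6.67.

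**Figure D4:**
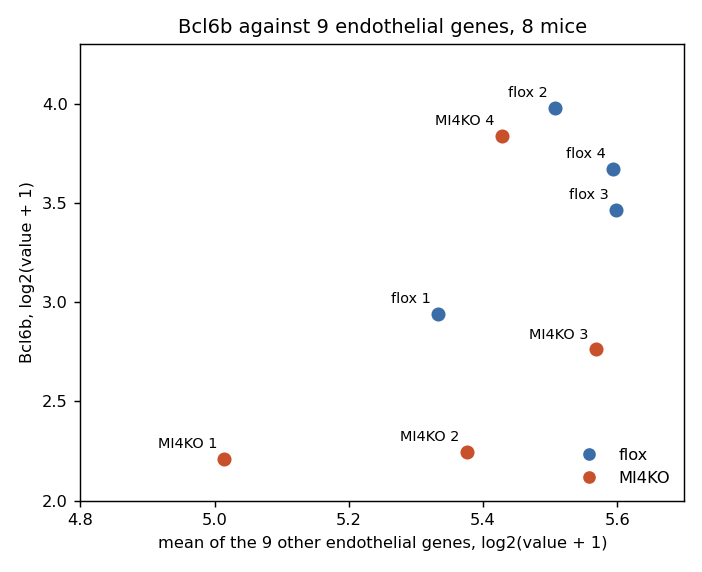
Bcl6b against the mean of the 9 other endothelial genes, both as log2(value + 1), with 1 labelled point per mouse, blue for flox and orange for MI4KO. MI4KO mouse 1 is lowest on both axes, and MI4KO mice 2 and 3 lie at a 9-gene mean of 5.38 and 5.57 with Bcl6b below every flox mouse.

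Correlation with Bcl6b over the 8 mice was computed for every other gene tested, 11864 in all, with an exact two-sided permutation test over the 40320 orders of the mice. These pooled values include the difference between the groups on which Bcl6b was chosen. Tek had Pearson r = 0.82 (exact permutation p = 0.0111) and Spearman rho = 0.86 (exact permutation p = 0.0107). Cdh5 had r = 0.78 (exact permutation p = 0.0112) and rho = 0.69 (exact permutation p = 0.0694), and Kdr had r = 0.73 (exact permutation p = 0.0386) and rho = 0.79 (exact permutation p = 0.0279). These were 3 of the 9 members with r above 0 and an unadjusted p under 0.05, as 4.19% of all genes were. After Benjamini-Hochberg adjustment over the 11864 genes, the exact permutation p of the 9 members was between 0.781 and 0.981, so no relation passed the correction.

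The other 6 members had lower r. Pearson r was 0.62 for Tie1 (exact permutation p = 0.103), 0.56 for Sox18 (p = 0.155) and 0.40 for Pecam1 (p = 0.336). Their rho values were 0.52 (exact permutation p = 0.197), 0.50 (p = 0.216) and 0.26 (p = 0.536). Sox17, Flt1 and Esam had r of 0.28, 0.27 and 0.26 (exact permutation p = 0.521, 0.522 and 0.532) and rho of 0.21, 0.26 and 0.21 (p = 0.619, 0.536 and 0.619). The median r of the 9 was 0.56, where that of all genes was 0.04. Without the 2 mice farthest from each gene's median, r was 0.80 for Tek, 0.80 for Cdh5, 0.80 for Kdr and 0.72 for Sox18. For Pecam1, Sox17, Flt1 and Esam it was 0.43, 0.32, 0.36 and 0.26. For Tie1, where the mice left out were MI4KO mouse 1 and flox mouse 4, it was 0.30. The r of Tie1 was 0.39 without MI4KO mouse 1 alone and 0.57 without flox mouse 4 alone.

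Within the groups, where each gene was taken as its deviation from the group mean, the difference on which Bcl6b was chosen plays no part. The r with Bcl6b was then 0.74 for Tek (exact permutation p = 0.0799 over 576 orders), 0.66 for Cdh5 (p = 0.201), 0.57 for Kdr (p = 0.278) and 0.52 for Sox18 (p = 0.330). It was 0.45 for Tie1 (exact permutation p = 0.299), 0.31 for Sox17 (p = 0.578), 0.29 for Flt1 (p = 0.597), 0.28 for Pecam1 (p = 0.632) and 0.19 for Esam (p = 0.734). None of the 9 had an unadjusted p under 0.05, where 2.87% of the 11864 genes had one with r of either sign, and each adjusted p was 1.0. The median of the 9 was 0.45, and that of all genes 0.01. Single mice moved these values, and without MI4KO mouse 4 r within groups was 0.067 for Kdr and 0.40 for Tek, where without MI4KO mouse 2 it was 0.89 and 0.93. Whether Bcl6b follows the endothelial genes within groups was thus not resolved with 4 mice each.

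The relation depended on single mice. Without MI4KO mouse 1 the median r of the 9 fell to 0.34 over the 7 remaining mice, 4 of the 9 r values were below zero (Pecam1, Esam, Flt1 and Sox17), and r was 0.74 for Cdh5 (exact permutation p = 0.0702), 0.59 for Kdr (p = 0.147) and 0.74 for Tek (p = 0.0486). Without MI4KO mouse 3 the median was 0.68 and all 9 were above zero. Without both MI4KO mouse 3 and flox mouse 1 the median was 0.69. With scaling by library size, r was 0.71 for Tek (exact permutation p = 0.0564) and 0.68 for Kdr (p = 0.0659), both past the limit no longer. Kdr also lost the limit with median-of-ratios scaling (exact permutation p = 0.0521) and without MI4KO mouse 4 (p = 0.0861). The same held without flox mouse 1, 2, 3 or 4 (exact permutation p = 0.0641, 0.0978, 0.0776 and 0.0893).

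The 9 endothelial genes were in turn compared with each other, as a description with no test. Their 36 pairs had a median r of 0.73 over the 8 mice, from 0.06 for Kdr with Flt1 to 0.99 for Flt1 with Sox17, and the 9 pairs with Bcl6b had 0.56. The points share libraries and their scaling, and the low pairs turned on 1 mouse. Without MI4KO mouse 3 the 36 pairs had a median of 0.92 with a lowest r of 0.65, Kdr with Flt1 rose to 0.91, and the pairs with Bcl6b had a median of 0.68. Kdr with Tek had r = 0.93 with all mice and 0.92 without MI4KO mouse 3. Without MI4KO mouse 1 the median was 0.45 and 26 of the 36 pairs were above zero. Against the mean of the other endothelial genes, r over the 8 mice was 0.92 for Tie1, 0.90 for Pecam1, 0.90 for Cdh5, 0.64 for Bcl6b, 0.57 for Tek and 0.40 for Kdr. Without MI4KO mouse 3, r was 0.94 for Kdr, 0.90 for Tek, 0.77 for Sox18 and 0.75 for Bcl6b, the last being the lowest of the 10. Without MI4KO mouse 1 the lowest were Kdr at -0.29 and Tek at 0.00094, and Bcl6b was at 0.41.

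**Figure D5:**
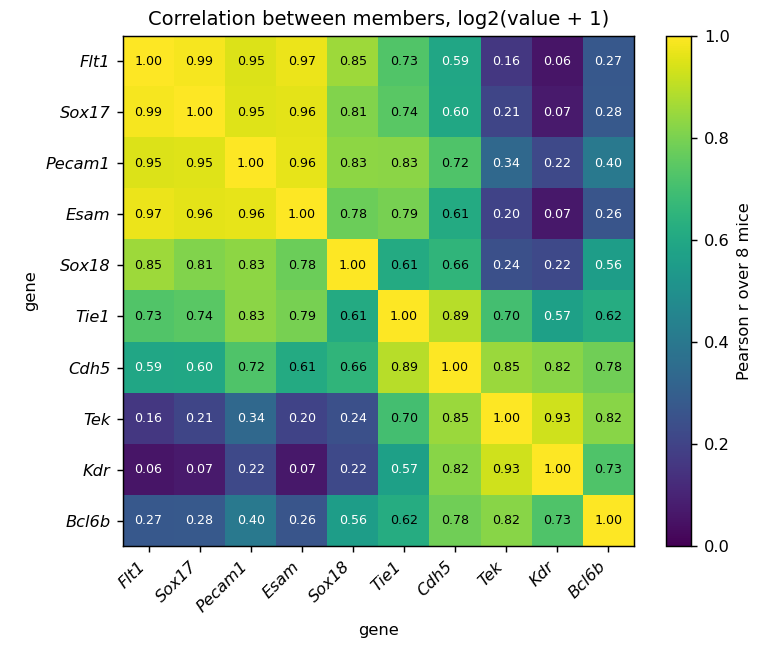
Pearson r between each pair of the 10 genes over the 8 mice, on log2(value + 1), from dark (0) to yellow (1). Flt1, Sox17, Pecam1, Esam and Sox18 form a block of high r, Kdr with Tek reaches 0.93, Kdr with Flt1 is at 0.06, and Bcl6b is highest with Tek (0.82), Cdh5 (0.78) and Kdr (0.73).

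Bcl6b varied more between mice than its companions. The within-group standard deviation on the log2 scale was 0.619 for Bcl6b and between 0.156 for Tek and 0.357 for Sox17 among the 9 others. Of the 2221 genes whose mean was within 1.5-fold of that of Bcl6b, the median was 0.171 and 19 genes had a larger value (0.856%). Its highest value was 4.07 times its lowest, where this ratio ran from 1.41 for Sox18 to 2.36 for Sox17 in the others.

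The wider endothelial program was read from lists of marker genes. Of 28 pan-endothelial genes 27 were tested, among them 7 of the members. All 27 had a log2 fold change below zero (26 with scaling by library size, edgeR or DESeq2), with a median of -0.17. At an unadjusted p under 0.05 in limma 8 were lower (29.6%, beside 2.95% of all genes) and 0 higher, with an adjusted p of 1.0 for each. These were Cdh5, Kdr, Cd93, Mmrn2, Arhgef15, Calcrl, Icam2 and Erg, of which Arhgef15, Icam2 and Erg did not overlap between the groups. In the whole list 4 of the 27 were lower without overlap, beside 1.7% of all genes. Icam2 is also counted in the junction list and Erg among the transcription factors. Cd93, a vascular lectin-like receptor, was at 52.3 ± 4.71 in flox and 41.7 ± 5.91 in MI4KO mice, and Erg, an ETS factor that maintains endothelial identity, at 12.5 ± 1.48 and 9.33 ± 1.58 (SD, n = 4 each). The count was 3 with scaling by library size and 6 with edgeR and with DESeq2, beside 1.11%, 1.97% and 1.33% of all genes. It was 4 without MI4KO mouse 1, 4 without flox mouse 2, 3 without flox mouse 3 and 5 without flox mouse 4. The shares of all genes in these 4 fits were 2.19%, 2.71%, 1.8% and 1.89%. It was 15 without MI4KO mouse 3, beside 4.57% of all genes. Without both MI4KO mouse 3 and flox mouse 1 it was 18, beside 4.71% of all genes. Without MI4KO mouse 1 the median was -0.06 and 21 of the 27 were below zero. With the 9-gene mean as covariate, a mean that includes 7 of the 27, the median was -0.08 and 18 were below zero. The count lower at the limit was then 2, beside 2.43% of all genes.

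Among 23 endothelial transcription factors tested, 4 were lower at an unadjusted p under 0.05 (17.4%, beside 2.95% of all genes) and none higher, and 1 of the 4 was Bcl6b, which was chosen on this contrast. The count was 1 with scaling by library size and 2 with edgeR and with DESeq2, beside 1.11%, 1.97% and 1.33% of all genes. It was 2 without MI4KO mouse 1 or 2 (2.19% and 2.96%) or flox mouse 2, 3 or 4 (2.71%, 1.8% and 1.89%). Without MI4KO mouse 4 it was 7 (4.43%). With the mean of the 9 endothelial genes as covariate 2 were lower and 1 higher, beside 2.43% of all genes lower. The 4 lower with all mice were Bcl6b, Erg, Elk3 and Klf2. Elk3, an ETS factor, was at 20.2 ± 0.564 and 16.2 ± 2.67 (SD, n = 4 each), and its groups did not overlap. Klf2, the flow-responsive Kruppel-like factor, was at 62.0 ± 11.6 and 40.6 ± 25.8 (SD, n = 4 each). The Klf2 log2 fold change was -0.79 (standard error 0.33). Of the 23 factors, 2 (Erg and Elk3) were lower without overlap, beside 1.7% of all genes. Of 6 Notch genes of vessels, Dll4, the ligand of arterial and tip cells, was at 13.7 ± 0.965 and 10.9 ± 1.34 without overlap, and Dll1 was at 4.31 ± 1.02 and 3.10 ± 0.580 (SD, n = 4 each). Both had an unadjusted p under 0.05 and an adjusted p of 1.0 in limma. These 2 of the 6 Notch genes stood beside 2.95% of all genes. The Notch count was 1 without a filter, with either alternative scaling, with edgeR and with DESeq2. It was also 1 without MI4KO mouse 1, 2 or 3 and without flox mouse 1, 2 or 4. The same held with MI4KO mouse 3 and flox mouse 1 both left out. It was 0 with the mean of the endothelial genes as covariate. It stayed at 2 with a pseudocount of 0.5, with robust limma, and without MI4KO mouse 4 or flox mouse 3. Over these fits the share of all genes ran from 1.11%, with scaling by library size, to 4.71%, with MI4KO mouse 3 and flox mouse 1 both left out.

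Genes of vessel subtypes were read from the same fit. At an unadjusted p under 0.05, 0 of 8 capillary genes, 1 of 7 arterial genes (Dll4), 0 of 5 venous genes and 0 of 6 lymphatic genes were lower in MI4KO, beside 2.95% of all genes, and none was higher. These counts were, without MI4KO mouse 3, 5 of 8 capillary, 2 of 7 arterial, 2 of 5 venous and 0 of 6 lymphatic genes lower, beside 4.57% of all genes. The venous median went from 0.14 to -0.18, with all 5 genes below zero, and the capillary median from -0.10 to -0.24. The capillary genes ran from -0.22 for Gpihbp1 to 0.03 for Cd36, and the venous genes from -0.27 for Nr2f2 to 0.64 for Selp. Of 10 mural markers 1 was lower, Cspg4 at 27.5 ± 5.09 in flox and 20.3 ± 5.87 in MI4KO mice (SD, n = 4 each), and of the 8 fiber genes none was past the limit. This mural count of 1 stood beside 2.95% of all genes. It was 0 without a filter, with either alternative scaling, with robust limma, with edgeR and with the 9-gene mean as covariate. It was also 0 without MI4KO mouse 1, flox mouse 2 or flox mouse 4. It was 2 without MI4KO mouse 2, 3 without MI4KO mouse 3 and 4 without MI4KO mouse 4. The shares of all genes in these 3 fits were 2.96%, 4.57% and 4.43%. Bcl6b is also expressed outside vessels, so blood cell markers are given beside it. Of 10 leukocyte markers 9 were in the table and 3 passed the filter, none at an unadjusted p under 0.05, and the summed list was at 10.1 to 12.4 in the flox group and at 12.5 to 16.9 in the MI4KO group. None of the 9 was at 0 in every mouse. The 5 platelet markers summed to 6.10 to 8.54 and 5.50 to 8.51. The leukocyte sums of the groups parted only narrowly, between 12.39 in flox mouse 4 and 12.48 in MI4KO mouse 1. Of the 9 genes, 3 stayed under 1 in every mouse. The part of leukocytes in the Bcl6b values was not tested.

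By a fixed rule, the 5 genes most like Bcl6b over the 8 mice were Itga6 (r = 0.97), Ky (0.96), Chd3 (0.96), Fzd1 (0.95) and Trim32 (0.95), none of them a member, and the exact permutation p adjusted over 11864 genes was 0.294 or more for each. Within groups they were Zfp790 (r = 0.96), Mfap3 (0.95), Rgs16 (0.95), Itga6 (0.95) and Ky (0.94), each with an adjusted p of 1.0. Ranked by r among all genes, Tek was at place 128, Cdh5 at 225 and Kdr at 402.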

How the data were processed

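Each of the 8 mice gave 1 stranded poly(A) library of SOL RNA, read from one end over 50 bases. The authors mapped reads to transcripts with Bowtie2 2.1.0, estimated expression with RSEM 1.2.15 (versions and build mm10 from the submitters' processing notes) and applied TMM. They deposited 1 normalized signal (CPM) per gene and mouse, and column sums range from 917785 to 1089208. The authors' own fold changes, p-values and FDR stand beside these values and were not used. Dividing by the smallest step of each mouse turned 100% of its values above 0 into whole reads (tolerance 0.1), which gave the depth. Intervals and floors cover counting error only.

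Values were compared with limma 3.58.1 (R 4.3.3, mean-variance trend) on log2(value + 1), for genes at 1 or more in at least 4 of 8 mice, without covariates. Permutation tests were exact (numpy 2.4.6), and both steps were tested on simulated data. No label pairs a mouse of a group with a mouse of the other, although the runs of label numbers hold mice of both groups, in unequal shares. Gene positions and exon lengths are from GENCODE M21 (GRCm38), matched by symbol, and promoter windows from RefSeq. Genes of like level are those within 1.5-fold. Alternatives were another pseudocount, no filter, other scalings, robust limma, edgeR 4.0.16 (quasi-likelihood) and DESeq2 1.42.0 on the recovered reads, a covariate and mice left out.

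The members and lists were chosen with earlier results of these data known. Named genes are the members, Irf4, Bcl6, list genes with an unadjusted p under 0.05 (up to 5 by p, all 8 for the pan-endothelial list, which was widened after their values were seen) or the extremes of a list, and the 5 genes most like Bcl6b.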

Additional observations from a re-analysis of the deposited data

Results flagged for a closer look

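Among 28 groups of 4 mice examined (the members, Irf4, Bcl6, the 9-gene mean and Bcl6b minus that mean), 2 held a mouse whose distance to its nearest neighbour, divided by the whole range of its 4 mice (log2 values), was beyond the 95% limit of Dixon's test. About 1 in 20 groups would pass by chance. Both concern Cdh5. Flox mouse 1, at 112.7, had a gap of 0.839 below the other flox mice. MI4KO mouse 1, at 82.0, had a gap of 0.841 below the other MI4KO mice. Flox mouse 1 is the mouse with liver transcripts, and their part in its Cdh5 value was not tested.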

How the results depend on the processing

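The limits here are 4 mice per group, a bulk tissue and 50 to 220 reads per mouse on Bcl6b. The 26 genes past both limits became 41 with a pseudocount of 0.5, 13 with robust limma, 65 with edgeR, 51 with DESeq2 and 41 with MI4KO mouse 3 and flox mouse 1 both left out, and between 19 and 58 with 1 mouse left out, the highest without MI4KO mouse 4. Bcl6b kept its direction under every alternative run, but each run reuses the mice in which it was chosen by that direction. Its log2 fold change lost the unadjusted limit without a filter (-0.75), with scaling by library size (-0.71), robust limma (-0.75), edgeR (-0.68), DESeq2 (-0.69) and the 9-gene mean as covariate (-0.47). With 1 mouse left out it ran from -1.11, without MI4KO mouse 4, to -0.56, without MI4KO mouse 1, and it lost the limit without MI4KO mouse 1 or 2 and without flox mouse 2, 3 or 4. The cause was not tested. Kdr and Cdh5 lost it without MI4KO mouse 1 (-0.26 and -0.16) and without flox mouse 2 (-0.35 and -0.27) or 3 (-0.34 and -0.25), Cdh5 without flox mouse 4 (-0.27), Kdr without MI4KO mouse 3 (-0.27) and with edgeR (-0.32), and both with scaling by library size (-0.32 and -0.24) and with the covariate (-0.28 and -0.13). Correlations with Bcl6b that turned sign did so without MI4KO mouse 1. With 1 mouse left out, pooled r ran from -0.020 to 0.68 for Pecam1, -0.12 to 0.58 for Esam, -0.11 to 0.64 for Flt1 and -0.14 to 0.63 for Sox17, and within-group r from -0.055 to 0.56 for Pecam1 and -0.096 to 0.67 for Esam. Within-group r ran from 0.067 to 0.89 for Kdr and from 0.40 to 0.93 for Tek, both lowest without MI4KO mouse 4 and highest without MI4KO mouse 2.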
